A study of Mus musculus with 4 samples.

Results

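A set of 6 genes of gp130 cytokine signalling, Stat3, Socs3, Il6st, Jak1, Lifr and Osmr, were followed across the cell types of the newborn mouse kidney and between genotypes. They are 6 of the 31053 genes in the count matrices, and all 6 were matched by symbol. The set was built around Stat3, which was chosen because earlier results from these libraries showed it lower in floxed nephron progenitors and not in stroma. The Stat3 values in those cells are therefore a description of what the choice used and carry no test. Dissociated whole kidneys were measured with a 3′ droplet assay for single-cell RNA, giving 2 libraries, 1 per genotype. The Six2CreTet2/3f/f library came from a newborn mouse with floxed Tet2 and Tet3 and the Six2Cre transgene, and is called the floxed library. The Six2Cre library came from a newborn mouse with the same transgene and is called the control library. Both animals thus carried Six2Cre, which is active in Six2-positive nephron progenitors. In the floxed animal, cells descended from progenitors are therefore expected to carry the recombined alleles, which was not checked here. Stroma, vessels and blood cells lie largely outside that lineage. Tet2 and Tet3 encode dioxygenases that oxidise methylated cytosine in DNA. The 2 whole-genome bisulfite samples of the series were not analysed here.

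The gp130 pathway passes signals from cytokines of the interleukin-6 family into the nucleus. A cytokine, often with its own receptor chain, brings together gp130 (encoded by Il6st) and partners such as the LIF receptor (Lifr) or the oncostatin M receptor (Osmr). The receptor-bound kinase JAK1 then phosphorylates STAT3, which enters the nucleus and activates genes that include Socs3, whose product inhibits the receptor complex. In the kidney, LIF is known for promoting the conversion of metanephric mesenchyme to epithelium in culture.

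The sequence of 2 promoters is shown because Stat3 carried the difference in progenitors and Socs3 is the classical target of its protein. Both genes lie on chromosome 11 of GRCm38 on the minus strand, and both windows, from RefSeq on GRCm38.p6, run from 250 bases before to 50 bases after the transcription start. The Stat3 window is chr11:100939491-100939790, with each CpG dinucleotide in capitals, and the Socs3 window is chr11:117969317-117969616, with the match to the STAT motif in capitals.
Stat3: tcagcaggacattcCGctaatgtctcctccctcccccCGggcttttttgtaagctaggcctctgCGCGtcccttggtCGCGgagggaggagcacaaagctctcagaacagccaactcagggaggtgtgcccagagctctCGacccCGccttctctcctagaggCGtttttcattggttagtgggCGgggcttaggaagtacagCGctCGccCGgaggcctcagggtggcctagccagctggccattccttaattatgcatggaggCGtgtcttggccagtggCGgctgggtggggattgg
Socs3: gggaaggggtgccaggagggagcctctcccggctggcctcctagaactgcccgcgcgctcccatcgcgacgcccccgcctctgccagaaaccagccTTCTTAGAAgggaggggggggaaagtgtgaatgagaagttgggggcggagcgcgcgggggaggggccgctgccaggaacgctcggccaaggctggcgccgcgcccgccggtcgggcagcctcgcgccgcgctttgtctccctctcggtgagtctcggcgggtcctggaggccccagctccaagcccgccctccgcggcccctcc
The Stat3 window holds 15 CpG dinucleotides, against 31 in the Socs3 window, 33 in that of Il6st, 29 in that of Jak1, 22 in that of Osmr, and 53 and 4 at the 2 start sites of Lifr. The median over the 32851 RefSeq promoter windows of the same length was 7. The motif searched was TTCNNNGAA, which reads the same on both strands. It occurred once in the Socs3 window, as TTCTTAGAA starting at base 97, and 8.3% of all windows held it. It was not in the windows of Stat3, Il6st, Jak1, Lifr (2 start sites) or Osmr, which says only that these letters are not there.

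The matrices held 22543 barcodes and 115427704 UMIs in the floxed library and 25736 barcodes and 197745868 UMIs in the control library, where a UMI marks 1 captured RNA molecule. After filtering, 14393 floxed and 19493 control cells remained, with medians of 4775 UMIs in the floxed and 5990 UMIs in the control library. The libraries shared 174 barcode sequences, which is 0.772% of the floxed and 0.676% of the control barcodes. The cells fell into 28 clusters, of which 22 were assigned to 13 classes by marker genes and 6 stayed unnamed, and each class is called "-like" because its name was rebuilt from expression. Cells with loop of Henle and distal tubule markers are called distal nephron-like, and those with ureteric bud and collecting duct markers collecting system-like. In progenitor-like cells Tet3 stood at 40.7 CPM in the floxed and 90.3 CPM in the control library, and Tet2 at 21.5 CPM in floxed and 27.7 CPM in control cells, where CPM is the gene's UMI count scaled to a class total of 1000000. Tet3 was also lower in floxed stroma-like cells, at 39.5 CPM against 49.9 CPM in control stroma-like cells. Which exons the floxed alleles lose is not given in the sources used here, so tags at the 3′ end do not check the deletion. With 1 library per genotype, genotype, animal and library cannot be told apart, and the 95% intervals below cover counting error only.

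Stat3 was lower in the floxed library in progenitor-like cells, at 11.5 CPM (121 UMIs in 1573 cells), against 29.8 CPM in the control library (718 UMIs in 2573 cells). The log2 ratio of floxed over control was -1.38 (95% interval -1.67 to -1.10), and the counting intervals of both levels, 9.51 to 13.7 CPM in the floxed and 27.7 to 32.1 CPM in the control library, did not overlap. In stroma-like cells the level was 43.3 CPM in the floxed library and 48.4 CPM in the control library, a log2 ratio of -0.16 (-0.28 to -0.05). The progenitor-like ratio less the stroma-like ratio gave -1.22 (-1.52 to -0.91), which is also part of what the choice used. Progenitor-like was the class with the lowest Stat3 level in the floxed library. In the control library it was lower only in committed nephron-like cells, at 22.3 CPM, and erythroid-like cells, at 6.40 CPM.

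A gene was counted as past the size rule when at least 1 library had it at 25 CPM or more and its interval lay wholly beyond 1.5-fold. In progenitor-like cells 3.42% of the 5264 genes at that level passed in either direction, 110 higher and 70 lower (1.33%) in the floxed library, and of the 6 genes Stat3 alone passed. The choice used that contrast, so nothing is read from this count. With TMM scaling, which moves every progenitor-like ratio down by 0.07 on the log2 scale, the split was 85 higher and 95 lower.

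Counted per cell, with each cell thinned to 2000 UMIs to even out the depth, 1.95% of 1536 floxed progenitor-like cells had a Stat3 UMI, against 5.88% of 2553 control cells. Without thinning the shares were 7.18% of floxed and 21.6% of control progenitor-like cells, whose median depths were 6162 UMIs (floxed) and 7580 UMIs (control). Erythroid-like cells, the class with the lowest control level, gave 2.87% in the floxed and 0.704% in the control library after thinning, at median depths of 4004 UMIs (floxed) and 4487 UMIs (control) before it. The floxed progenitor-like share thus lay below that of floxed erythroid-like cells, and low expression and free RNA in the droplets cannot be told apart for these UMIs.

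The difference appeared in both progenitor-like clusters. In the larger, led by the progenitor genes Crym and Cited1 and held by 1367 floxed and 2000 control cells, Stat3 stood at 12.1 CPM in floxed and 31.7 CPM in control cells (log2 ratio -1.39). In the smaller, which had Six3, Six2 and the mitosis gene Cenpf among its leading genes, it stood at 8.70 CPM in floxed and 25.8 CPM in control cells (-1.57) in 206 floxed and 573 control cells. An unnamed cluster in which progenitor and stroma markers were mixed gave 28.3 CPM in the floxed and 51.2 CPM in the control library (-0.86). Cells with 2 or more UMIs from a list of 10 mitosis genes after thinning to 2000 UMIs are called cycling. Cycling cells made up 18.3% of thinned floxed and 27.2% of thinned control progenitor-like cells. Stat3 was lower in floxed cells on either side of that division. It stood at 9.10 CPM in floxed against 27.0 CPM in control cycling cells (-1.57). In the other cells, which include any dividing cell under that threshold, it stood at 12.1 CPM in floxed against 31.2 CPM in control cells (-1.36).

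**Figure D1:**
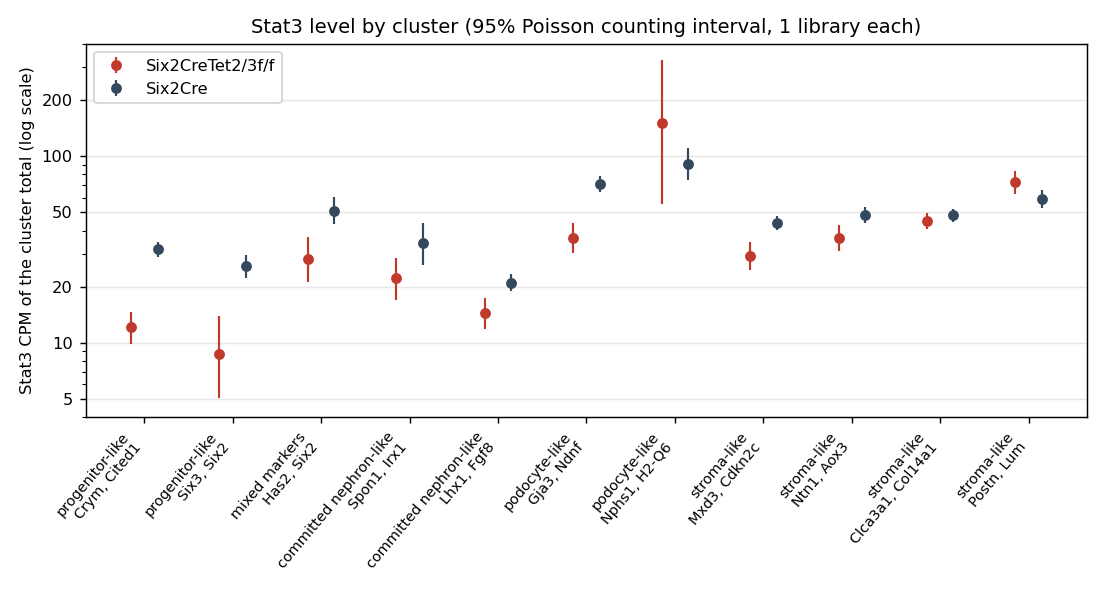
Stat3 level in CPM of the cluster total (log scale) in each progenitor-like, mixed-marker, committed nephron-like, podocyte-like and stroma-like cluster, labelled by 2 of its leading genes. Points are the Six2CreTet2/3f/f library (left of each pair) and the Six2Cre library (right), with 95% Poisson counting intervals. The floxed points of both progenitor-like clusters lie at 8.70 and 12.1 CPM, below the control points at 25.8 and 31.7 CPM, while the stroma-like clusters lie on both sides of equality.

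The size of the progenitor difference was smaller when likely doublets, droplets that hold more than 1 cell, were left in before clustering. When none were removed, the progenitor-like class grew to 2173 floxed and 3317 control cells and its Stat3 level was 20.6 CPM in the floxed and 32.0 CPM in the control library, a log2 ratio of -0.63 (-0.81 to -0.46). Within that enlarged class, the 1507 floxed and 2516 control cells that were progenitor-like after doublet removal kept a log2 ratio of -1.36. The 308 floxed and 339 control barcodes that had been removed as likely doublets gave 37.0 CPM in floxed and 32.1 CPM in control cells, a log2 ratio of 0.20 (-0.13 to 0.54). The other cells of that class had been unnamed (218 floxed and 236 control cells, log2 ratio -0.56) or in another class (140 floxed and 226 control cells, log2 ratio -0.56). Without the barcodes removed as doublets, the enlarged class stood at 16.2 CPM in the floxed and 32.0 CPM in the control library, a log2 ratio of -0.98 (-1.20 to -0.77), so the smaller ratio came from both the doublets and the cells that changed class. The stroma markers summed to 2285 CPM in the floxed and 2564 CPM in the control barcodes removed as doublets. In the cells that were progenitor-like after doublet removal they summed to 312 CPM (1507 floxed cells) and 365 CPM (2516 control cells). The progenitor-like ratio less the stroma-like ratio was -0.47 without doublet removal.

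The other RNA in progenitor-like cells also differed between the libraries. The 10 proximal tubule markers summed to 47.7 CPM in floxed and 90.4 CPM in control progenitor-like cells and all 10 were lower in the floxed library. The 10 endothelium markers summed to 63.6 CPM in floxed and 114 CPM in control cells, with all 10 lower. Macrophage markers were near equal, at 43.7 CPM in floxed and 42.7 CPM in control cells, and stroma markers stood at 311 CPM in floxed and 364 CPM in control cells. Erythroid markers were higher, at 4516 CPM in the floxed and 1167 CPM in the control library, and the progenitor markers summed to 1427 CPM in floxed and 1088 CPM in control cells. The part of these markers in the Stat3 difference was not tested.

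Across all classes the Stat3 log2 ratio was negative in 12 of 13. It was also negative in 11 of 13 with TMM scaling, where lymphocyte-like cells changed sign, and in 8 of 12 after thinning. The interval lay wholly below 0 in 8 classes, which include stroma-like cells, although the stroma-like ratio was 0.13 after thinning. Besides progenitor-like cells, podocyte-like and macrophage-like cells passed the size rule. In podocyte-like cells Stat3 stood at 38.0 CPM in the floxed and 74.6 CPM in the control library (-0.97, interval -1.27 to -0.68), and in macrophage-like cells at 59.7 CPM in floxed and 114.6 CPM in control cells (-0.94, interval -1.27 to -0.62). The background share of genes lower in the floxed library was 1.59% in podocyte-like and 3.25% in macrophage-like cells. Of the 12 other processing choices that altered each value, the podocyte-like ratio passed in 11 and the macrophage-like one in 6, with log2 ratios of -1.17 to -0.90 and -0.98 to -0.67.

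The tubule classes had ratios between these and stroma. Distal nephron-like cells gave 63.0 CPM in the floxed and 97.6 CPM in the control library (-0.63, interval -0.80 to -0.46). Proximal tubule-like cells gave 26.7 CPM in floxed and 40.8 CPM in control cells (-0.61), and committed nephron-like cells, the early epithelial structures made by progenitors, gave 16.6 CPM in floxed and 22.3 CPM in control cells (-0.42). Collecting system-like cells, which do not descend from Six2-positive progenitors, gave 47.8 CPM in floxed and 70.0 CPM in control cells (-0.55, interval -0.71 to -0.39). The negative ratios were thus not limited to the lineage that Six2Cre marks.

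In 4 other classes the interval of the ratio included 0. Stat3 stood at 55.5 CPM in floxed and 68.9 CPM in control mural and renin cell-like cells (-0.31), 31.2 CPM in floxed and 36.9 CPM in control endothelium-like cells (-0.24), 84.6 CPM in floxed and 101.6 CPM in control neutrophil-like cells (-0.26) and 58.3 CPM in floxed and 59.5 CPM in control lymphocyte-like cells (-0.03). Erythroid-like cells were the class with a positive ratio, from 31 UMIs (18.3 CPM) in the floxed and 5 UMIs (6.40 CPM) in the control library.

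Ordered by level, neutrophil-like cells had the highest Stat3 in the floxed library, followed by distal nephron-like, macrophage-like, lymphocyte-like and mural and renin cell-like cells. The counting intervals of these neighbours overlapped, as did those of the next in order, collecting system-like and stroma-like cells. In the control library macrophage-like cells were highest, then neutrophil-like and distal nephron-like cells, again with overlapping intervals. The floxed progenitor-like interval of 9.51 to 13.7 CPM lay below that of the next class, committed nephron-like cells, at 14.2 to 19.3 CPM.

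The Stat3 ratio varied among the clusters within stroma-like cells. In a cluster led by mitosis genes such as Mki67 and Anln it stood at 29.3 CPM in the floxed and 43.8 CPM in the control library (-0.58, interval -0.86 to -0.30). In a cluster led by Ntn1 and Reln it stood at 36.5 CPM in floxed and 48.5 CPM in control cells (-0.41), and in the largest, led by Clca3a1 and Col14a1, at 45.2 CPM in floxed and 48.2 CPM in control cells (-0.09). In a cluster led by the matrix genes Postn and Lum it was higher in the floxed library, at 72.7 CPM in floxed against 59.0 CPM in control cells (0.30, interval 0.04 to 0.57). The near-equal class value is thus made of clusters whose ratios lie on both sides of 0.

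The podocyte-like class was split unevenly between clusters. One cluster, led by Gja3 and Ndnf, held 564 floxed and 650 control cells and gave 36.5 CPM in floxed and 71.0 CPM in control cells (-0.96). The other, with the slit diaphragm gene Nphs1 among its leading genes, held 13 floxed and 318 control cells, too few in the floxed library (6 Stat3 UMIs) for a ratio to be read. The podocyte markers summed to 3474 CPM in the floxed and 4428 CPM in the control class. Erythroid markers summed to 12497 CPM in floxed and 1770 CPM in control podocyte-like cells, and the part of either in the Stat3 ratio was not tested.

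**Figure D2:**
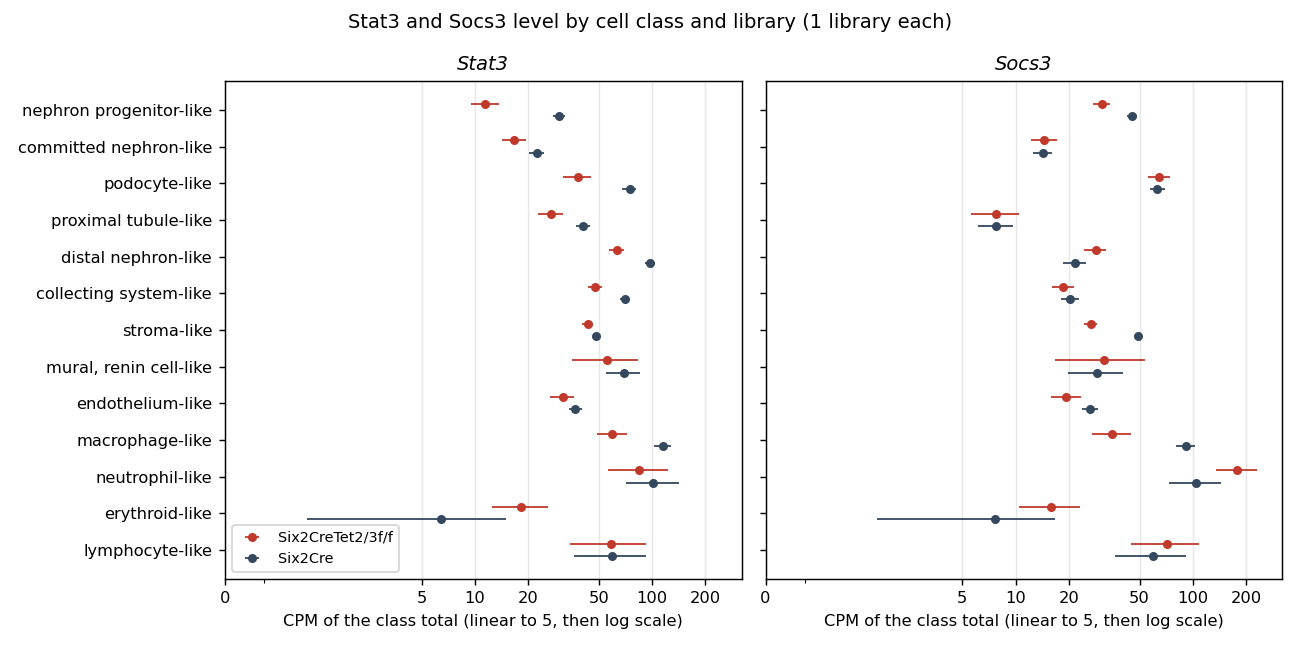
Level of Stat3 (left panel) and Socs3 (right panel) in CPM of the class total, on an axis that is linear to 5 and logarithmic above, for the 13 classes. The Six2CreTet2/3f/f library is drawn above the Six2Cre library in each class, with 95% Poisson counting intervals. In progenitor-like cells Stat3 lies at 11.5 CPM in the floxed and 29.8 CPM in the control library, and in macrophage-like cells Socs3 lies at 35.1 CPM in the floxed and 91.3 CPM in the control library.

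Jak1, the kinase that phosphorylates STAT3 at the receptor, differed little. In progenitor-like cells it stood at 84.9 CPM in the floxed and 86.2 CPM in the control library (-0.02, interval -0.14 to 0.09), and in stroma-like cells at 221 CPM in floxed and 209 CPM in control cells (0.08). Over the 13 classes its log2 ratio ran from -0.17 in collecting system-like cells, at 109.8 CPM in floxed against 123.5 CPM in control cells, to 0.37 in erythroid-like cells. None passed the size rule. Of the other Janus kinases, Jak2 stood at 11.5 CPM in floxed and 11.2 CPM in control progenitor-like cells, and Tyk2 at 2.94 CPM in floxed and 3.69 CPM in control progenitor-like cells.

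Il6st, which encodes the shared signal-transducing chain gp130, was highest in stroma-like cells of both libraries. It stood at 78.3 CPM in floxed and 80.0 CPM in control stroma-like cells (-0.03, interval -0.12 to 0.06), and at 23.1 CPM in floxed and 19.8 CPM in control progenitor-like cells (0.23). In podocyte-like cells it was at 68.7 CPM in the floxed and 41.8 CPM in the control library (0.72, interval 0.45 to 0.98). In proximal tubule-like cells it was at 18.5 CPM in floxed and 28.8 CPM in control cells (-0.64, interval -0.98 to -0.31), and in macrophage-like cells at 18.1 CPM in floxed and 29.9 CPM in control cells (-0.72, interval -1.35 to -0.13). These 3 intervals excluded 0, yet none lay wholly beyond 1.5-fold.

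Lifr, the partner chain for LIF, had a positive log2 ratio in 12 of 13 classes, and in 11 of 13 with TMM scaling. It was positive in 8 of the 11 classes that gave a value with the stricter cell filter, in 9 of 12 with the looser one and in 8 of 11 after thinning. In progenitor-like cells it stood at 26.6 CPM in the floxed and 19.7 CPM in the control library (0.44, interval 0.22 to 0.65). It stood at 19.0 CPM in floxed and 13.3 CPM in control committed nephron-like cells (0.51), 33.9 CPM in floxed and 24.1 CPM in control podocyte-like cells (0.49), and 51.5 CPM in floxed and 33.7 CPM in control macrophage-like cells (0.61). The interval lay above 0 in 6 classes and none passed the size rule. Distal nephron-like cells had the negative ratio, at 17.8 CPM in floxed and 21.6 CPM in control cells (-0.28, interval -0.62 to 0.05). In stroma-like cells the levels were 34.2 CPM in floxed and 32.2 CPM in control cells (0.09).

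Osmr, the partner chain for oncostatin M, was near the limit of detection outside stroma. Its highest level was in stroma-like cells, at 15.1 CPM in the floxed and 14.8 CPM in the control library (0.03, interval -0.18 to 0.23). Progenitor-like cells had 15 UMIs (1.42 CPM) in the floxed and 36 UMIs (1.49 CPM) in the control library. No class reached 25 CPM, so the size rule could not apply to Osmr.

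Socs3, whose protein inhibits gp130 and JAK1 signalling, was past the size rule and lower in the floxed library in macrophage-like and stroma-like cells. In macrophage-like cells it stood at 35.1 CPM in the floxed and 91.3 CPM in the control library (-1.38, interval -1.80 to -0.98). In stroma-like cells it stood at 26.6 CPM in floxed and 48.9 CPM in control cells (-0.88, interval -1.02 to -0.74), where 1.98% of genes were past the rule and lower. The macrophage-like ratio passed under 12 of the 12 other processing choices that altered it and the stroma-like ratio under 7 of 11 (-0.94 to -0.64). In progenitor-like cells it stood at 30.5 CPM in floxed and 45.4 CPM in control cells (-0.57, interval -0.76 to -0.39), which did not pass. In podocyte-like cells, where Stat3 was lower, Socs3 stood at 64.6 CPM in floxed and 63.0 CPM in control cells (0.04, interval -0.21 to 0.28).

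The Socs3 ratio was also uneven within classes. In the 4 stroma-like clusters it ran from -1.41 in the Ntn1 and Reln cluster, at 23.6 CPM in the floxed and 62.6 CPM in the control library, to -0.45 in the Postn and Lum cluster, at 34.4 CPM in floxed and 46.9 CPM in control cells. In neutrophil-like cells the direction was the other way, at 178 CPM in the floxed and 104 CPM in the control library (0.77, interval 0.15 to 1.41), from 59 floxed and 36 control UMIs. Endothelium-like cells had 19.3 CPM in floxed and 26.3 CPM in control cells (-0.44), and distal nephron-like cells 28.2 CPM in floxed and 21.5 CPM in control cells (0.39). Neutrophil markers summed to 3562 CPM in floxed and 519 CPM in control macrophage-like cells, and stroma markers to 336 CPM in floxed and 628 CPM in control cells. Their part in the macrophage-like ratios was not tested.

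**Figure D3:**
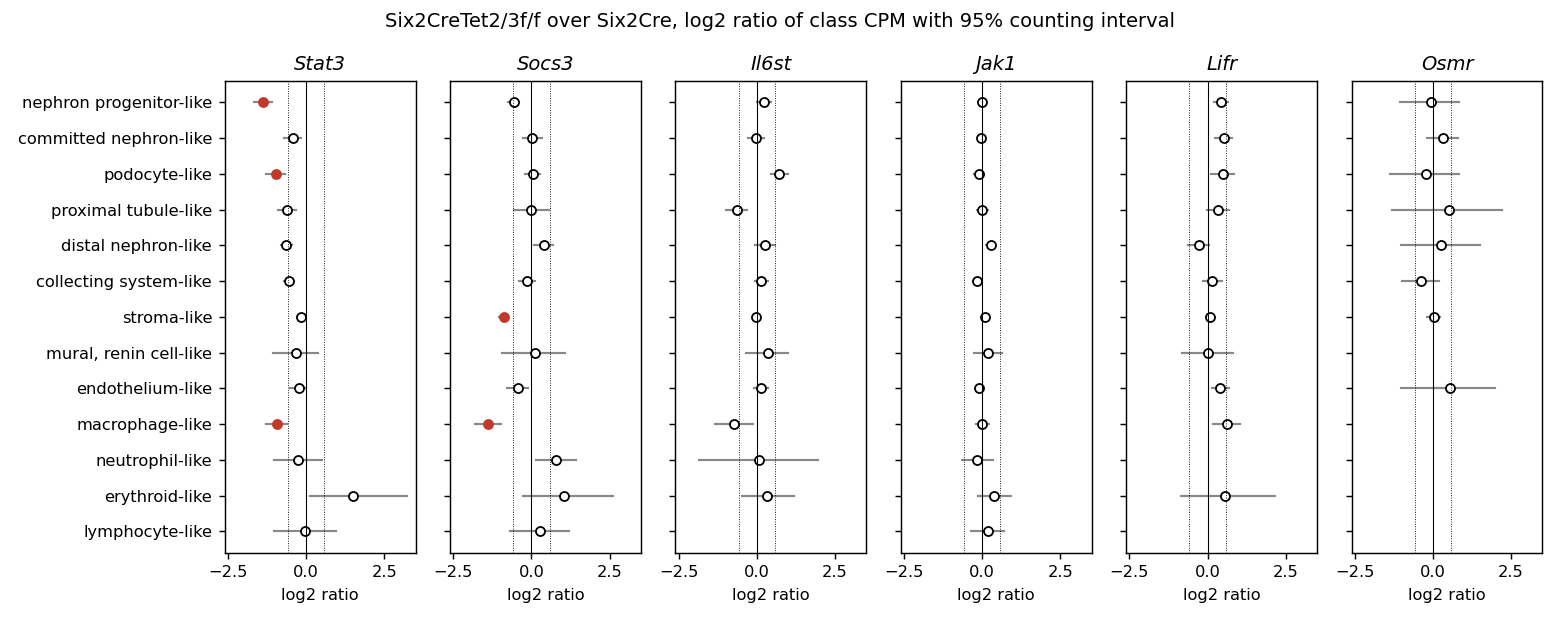
Log2 ratio of class CPM, Six2CreTet2/3f/f over Six2Cre, for the 6 genes in 13 classes, with 95% counting intervals. Filled red points are past the size rule, dotted lines mark 1.5-fold either way, and pairs with fewer than 5 UMIs in a library are not drawn. Stat3 passes in progenitor-like, podocyte-like and macrophage-like cells and Socs3 in stroma-like and macrophage-like cells, while Jak1 stays between -0.17 and 0.37.

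Taking the 6 genes and 13 classes as 78 pairs, 48 reached 25 CPM in a library, and 5 were past the size rule, all of them lower in the floxed library. Over all genes 3.36% of such class and gene pairs passed. Part of the 5 is what Stat3 was chosen for, so the count is a description.

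The ligands of the pathway were scarce in this tissue. Il6, Lif, Cntf and Il11 were at or near 0 CPM in progenitor-like and stroma-like cells. Osm, encoding oncostatin M, was found in neutrophil-like cells at 99.8 CPM in the floxed and 98.7 CPM in the control library, and in macrophage-like cells at 21.9 CPM in floxed and 21.5 CPM in control cells. Ctf1, encoding cardiotrophin 1, stood at 8.05 CPM in floxed and 3.82 CPM in control progenitor-like cells. It was positive in each of the 7 classes in which it reached 5 CPM, and in none did it reach 25 CPM. A class counted when either library reached 5 CPM, so the floxed level alone could admit it. Nothing is read from the direction in these classes.

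Of the 7 receptor chains listed, 4 reached 5 CPM in progenitor-like cells, and none passed the size rule there. Cntfr, the chain for ciliary neurotrophic factor, stood at 69.2 CPM in the floxed and 46.8 CPM in the control library (0.57), and Il11ra1, the chain for interleukin 11, at 65.3 CPM in floxed and 50.9 CPM in control cells (0.36). Il11ra1 stood at 172 CPM in floxed and 120 CPM in control stroma-like cells (0.52) and had a positive ratio in 12 of 13 classes. Il6ra, the interleukin 6 chain, was at 90.9 CPM in floxed and 75.4 CPM in control macrophage-like cells and under 1 CPM in progenitor-like cells of both libraries.

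Among the other STAT genes, Stat2, whose protein carries interferon signals, was past the size rule and lower in macrophage-like cells, at 12.1 CPM in floxed against 47.6 CPM in control cells (-1.98), a call that held under 11 of the 12 other processing choices that altered it.

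Among 18 genes listed as STAT3 targets, which are broadly expressed and respond to other signals as well, 14 reached 5 CPM in progenitor-like cells. Their ratios were positive in 3 and negative in 11, with a median of -0.30, beside a median of 0.05 over the 10328 genes at that level. Of them, Fos alone passed the size rule in progenitor-like cells. In podocyte-like cells, where Stat3 also passed, 9 listed genes were positive and 5 negative, with a median of 0.03 beside 0.02 over all genes. In macrophage-like cells, where Stat3 passed too, 4 were positive and 14 negative, with a median of -0.19 beside -0.07. Fos, an immediate-early gene that also responds to tissue dissociation, stood at 206 CPM in floxed and 781 CPM in control progenitor-like cells (-1.92). It was also past the rule and lower in stroma-like cells, at 308 CPM in floxed against 961 CPM in control cells (-1.64), in endothelium-like cells, where 1.54% of all genes were lower, and in mural and renin cell-like cells, where 0.697% were. The endothelium-like call (-0.76) held under 6 of the 11 other processing choices that altered it, with a value nearest to 0 of -0.49, and the mural and renin cell-like call (-0.95) under 8 of 10. Junb, of the same family, stood at 246 CPM in floxed and 418 CPM in control stroma-like cells (-0.76), the class with its lowest ratio. Over the 13 classes the Junb ratio was positive in 9 and negative in 4, with a median of 0.22. Birc5, a mitosis gene encoding survivin, stood at 80.7 CPM in floxed and 121 CPM in control progenitor-like cells (-0.59), and Ccnd1, encoding cyclin D1, at 127.7 CPM in floxed and 88.8 CPM in control cells (0.52). The mitosis list, which holds Birc5, had 10 of 10 genes with negative ratios and a median of -0.58 in progenitor-like cells, and 0 of them passed the size rule. In stroma-like cells 10 of 10 were negative too (median -0.49). In collecting system-like cells 8 of the 10 were past the rule and lower, where 1.76% of all genes were lower.

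In macrophage-like cells, Pim1, Il4ra and Bcl3 were also past the rule and lower, and Lcn2 was past it and higher, where 2.05% of all genes were higher. Pim1, a survival kinase, stood at 119 CPM in the floxed and 228 CPM in the control library (-0.94), a call that held under 7 of the 12 other processing choices that altered it. Il4ra, the interleukin 4 receptor chain, stood at 107 CPM in floxed and 198 CPM in control cells (-0.89), and Bcl3, a nuclear factor-kappa B cofactor, at 13.7 CPM in floxed and 51.1 CPM in control cells (-1.90). Lcn2, encoding lipocalin 2, which neutrophils also make, was higher at 114 CPM in floxed against 15.3 CPM in control cells (2.90), in the same cells in which the neutrophil markers were higher. Lrg1 was higher in neutrophil-like cells, at 1209 CPM in the floxed and 261 CPM in the control library (2.21), where 0.977% of genes were higher. Cebpd was higher in endothelium-like cells, at 82.2 CPM in floxed and 36.5 CPM in control cells (1.17), where 1.37% were. Bcl2l1, encoding the survival protein BCL-XL, was lower in endothelium-like cells, at 28.0 CPM in floxed and 51.2 CPM in control cells (-0.87), and had a negative ratio in each of the 13 classes.

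Over the 53 other genes of the pathway lists, 217 class and gene pairs reached 25 CPM and 19 were past the size rule, 4 higher and 15 lower. That is 8.76% of the pairs, beside the 3.36% of all genes given above, and Fos accounts for 4 of the 19. The lists were drawn up with earlier results of these libraries known. In progenitor-like cells 30 of the 59 genes in all lists reached 5 CPM, with a median log2 ratio of -0.10, and 0 were higher and 2 lower, namely Fos and Stat3. In stroma-like cells 36 reached that level, with a median of 0.05 beside 0.01 over all genes, and those past the size rule and lower include Fos, Junb and Socs3.

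The genes nearest to Stat3 on chromosome 11 had ratios closer to 0 in progenitor-like cells. Stat3 was chosen as lower in those cells and its neighbours were not, so this contrast is a description of the choice. The 5 nearest measured genes on each side, whose nearer ends lie within 266.5 kb of the gene, had log2 ratios from -0.21 for Kat2a, at 17.9 CPM in the floxed and 20.7 CPM in the control library, to 0.67 for Naglu, at 7.77 CPM in floxed and 4.90 CPM in control cells. Their median was 0.16, and 3 of them reached 25 CPM, so that the size rule could apply, and did not pass. Around Socs3, the 10 neighbours ranged from -1.44 for Lgals3bp, at 4.07 CPM in floxed and 11.1 CPM in control cells, to 0.32 for Cyth1, at 17.6 CPM in floxed and 14.2 CPM in control cells. Of these, 4 reached 25 CPM and did not pass, and Lgals3bp, whose interval lay beyond 1.5-fold, was under that level. Birc5 is among them and stood at -0.59, close to the -0.57 of Socs3 itself. It is also a mitosis gene, and the median of the mitosis list in these cells was -0.58.

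**Figure D4:**
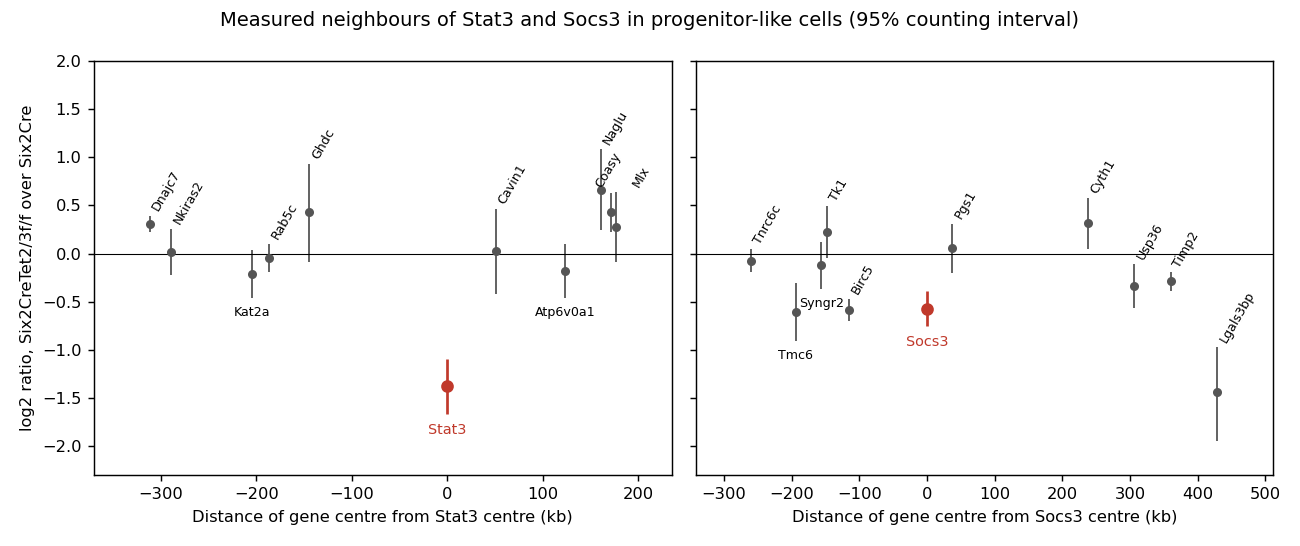
Log2 ratio, Six2CreTet2/3f/f over Six2Cre, in progenitor-like cells for the 10 nearest measured genes around Stat3 (left) and Socs3 (right) against the distance between gene centres in kb, with 95% counting intervals. Stat3, in red, lies at -1.38 below neighbours that range from -0.21 to 0.67, and Socs3, in red, lies at -0.57 among neighbours that range from -1.44 to 0.32. The Stat3 value is the one for which the gene was chosen.

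Genes with a pattern of levels like that of Stat3 were sought over the 26 class and library points, among 7058 genes, by Pearson's r of log2(CPM + 1). The nearest were Gyg (r = 0.84), encoding glycogenin, the zinc finger factor gene Klf6 (0.84), Gga1 (0.84), Chmp4b (0.83) and Tsc22d4 (0.83). The points share 2 libraries and differ in depth, so these values are descriptions. Of the gp130 pathway genes followed here, Jak1 (0.65) and Socs3 (0.62) were nearer to Stat3 than Lifr (0.15), Osmr (0.10) and Il6st (0.05). The log2 ratios over 13 classes were also compared, by Euclidean distance, among 2485 genes. Nearest to Stat3 were Gatad2b (1.66), Top2a (1.67), the targeted gene Tet3 (1.69), H1fx (1.73) and Gna13 (1.74). The 13 classes weigh equally, so erythroid-like cells, with few Stat3 UMIs, count as much as any other. The genes compared had to reach 25 CPM in the higher library of every class, which Stat3 did in 11. These distances include the ratios for which Stat3 was chosen, so they are descriptions too. No link between Stat3 and Tet3 is read from them.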

How the data were processed

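For either library the authors deposited a matrix of raw UMI counts from a 3′ droplet assay. The submitters' processing notes name Cell Ranger 6.0.2 and mm10, and the matrix headers name version 6.0.1. The matrices hold more barcodes than the 10000 cells loaded per library, and the annotation release is not given in the sources used here.

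Barcodes with 1000 or more UMIs, 500 or more genes and under 15% mitochondrial UMIs were kept, and the 8% with the highest scrublet scores in each library (1252 floxed, 1695 control) were removed as likely doublets. Both libraries were clustered together (scanpy 1.11.5, 2000 variable genes, 30 components, 15 neighbours, Leiden resolution 1). Clusters were named from lists of 10 markers by mean log2 ratio (0.5 or more, and 0.5 above the next class), with low-depth clusters scoring under 2 left unnamed; these thresholds were set after a look at the clusters. Ratios carry exact conditional binomial 95% intervals, levels exact Poisson ones. The calculation was tested on simulated counts. With 1 library per genotype no p-value is given. Genes were named by a rule: the 6 genes, listed pathway genes with at least 5 CPM in a class, the 5 nearest patterns by either measure, the 5 measured neighbours on each side, and Tet2 and Tet3. Cluster-leading genes are named to identify clusters. The genes, the lists and the tests were chosen with earlier results of these data known. All 59 listed genes matched by symbol. Results for some listed genes are not reported here, and counts over the lists include them. Promoters and gene positions are from RefSeq for GRCm38. The calculations used Python 3.11.15, numpy 2.4.6, pandas 2.3.3, scipy 1.17.1, scikit-learn 1.9.0, igraph 0.11.9 and matplotlib 3.10.9. The 15 alternatives are in the closing section.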

Additional observations from a re-analysis of the deposited data

Results flagged for a closer look

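For 4 of the 6 genes, classes differed in direction, with 1 class wholly above and another wholly below 0 by counting interval. The share of all genes that do so was not computed, so nothing is read from that count. The differences between classes were not tested across animals. For Stat3 the erythroid-like log2 ratio minus the progenitor-like one was 2.89, resting on 31 floxed and 5 control UMIs in erythroid-like cells. The erythroid-like Stat3 ratio ran from -1.79 to 2.02 over the other processing choices, so its direction was not kept in all of them. The median ratio over all genes with at least 5 CPM in erythroid-like cells was 0.27. For Socs3 the neutrophil-like ratio minus the macrophage-like one was 2.15. For Il6st the podocyte-like ratio minus the macrophage-like one was 1.44. For Jak1 the distal nephron-like ratio minus the collecting system-like one was 0.44.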

How the results depend on the processing

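Of 15 alternatives, 12 were planned and 3 were added after seeing the data (leaving out a podocyte-like cluster held mostly by the control library, a progenitor-like cluster with Cenpf and Bmper among its leading genes, and a low-depth macrophage-like cluster). No value that passed the size rule changed sign. Calls are counted over the alternatives that altered the value in question. Stat3 in progenitor-like cells passed in 11 of 12, with log2 ratios from -1.62 to -0.63; the exception was -0.63 with no doublets removed. Its ratio minus that of stroma-like cells was -0.47 there, and -1.75 in cells thinned to 2000 UMIs. Stat3 passed in podocyte-like cells in 11 of 12 and in macrophage-like cells in 6 of 12, and Socs3 in macrophage-like cells in 12 of 12 and in stroma-like cells in 7 of 11. Il4ra (-1.01 to -0.29) passed in macrophage-like cells in 10 of 12, and Bcl2l1 in endothelium-like cells in 8 of 11. The number of lower class and member pairs, 5 as reported, was 3 with the stricter cell filter, 2 with no doublets removed, 3 with floxed cells mapped to control clusters and 3 after thinning. With no minimum level, 398 genes were higher and 268 lower in progenitor-like cells, and 394 higher and 441 lower in stroma-like cells. Ccnd1 in podocyte-like cells passed in 0 of 12. No paired analysis was possible because each genotype has 1 library, and for the same reason no replicate could be left out. Depth limits Osmr, the ligands and the classes with few cells; intervals cover counting error only.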
